A study of Mus musculus with 36 samples.

Results

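The 48 genes described here encode subunits, regulators and assembly factors of the proteasome in primary mouse B cells that were turned into macrophages by C/EBPα. The rule that picks them reads symbols and no measured value, taking every gene of the log2 normalized tables named Psma, Psmb, Psmc, Psmd, Psme, Psmf or Psmg with a number and at most 1 closing letter, and they make up 48 of the 19067 genes of those tables. The count tables list 40354 genes, of which 49 match the names. The additional match, Psmb11, a core subunit of the thymus, had between 0 and 5 counts per library and was not analysed further. By role, 7 genes encode α-ring subunits, 4 non-catalytic β-ring subunits, 3 constitutive catalytic β subunits, 3 immunoproteasome β subunits and 1 a testis α subunit. A further 6 encode the 19S ATPases, 11 the 19S non-ATPase subunits, 3 the 19S assembly chaperones, 5 alternative caps, 1 a core inhibitor and 4 the 20S assembly chaperones.

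The proteasome degrades ubiquitin-tagged proteins inside a barrel, the 20S core, built of outer rings of α subunits and inner rings of β subunits. Psmb5, Psmb6 and Psmb7 supply its constitutive peptidase sites, and under interferon or in many blood cells these are replaced at assembly by Psmb8, Psmb9 and Psmb10 respectively, giving the immunoproteasome, which favours peptides that fit MHC class I molecules. The 19S cap, with an ATPase ring and non-ATPase subunits, recognises and unfolds substrates, while PA28 (Psme1 and Psme2), PA28γ (Psme3) and PA200 (Psme4) are alternative caps that open the core without ATP.

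The cells were B cell precursors from the bone marrow of C57BL/6J mice, infected with a retrovirus that carries C/EBPα fused to the estrogen receptor hormone-binding domain and a human CD4 marker, and grown on inactivated embryonic fibroblast feeders. The carried C/EBPα was wild-type (WT) or had arginine 35 replaced by alanine (R35A) or by lysine (R35K). All groups carried a construct, so that 0 h, before 17β-estradiol moved the fusion protein to the nucleus, is an infected and uninduced control. No uninduced group was sampled later, and the medium of the conversion held added cytokines and was later renewed without IL-7. Changes from 0 h therefore cannot be told apart from those of medium and time in culture. RNA was sequenced at 0, 1, 3, 6, 18 and 120 hours post-induction (hpi), and the labels call the cells up to 18 hpi B cells and those at 120 hpi macrophages. With 2 replicates in each of the 18 groups there were 36 libraries of 13044456 to 23131776 counts, and p-values measure only the spread between such replicates. That spread was small, with a variance at a median of 1.32 times that of counting noise (1.084 to 2.262 over the groups). The R35K libraries were deposited in tables of their own, so that R35K and the table cannot be told apart.

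Markers of the labelled cells were checked first, as CPM (edgeR's depth-normalised counts, with library totals scaled by TMM over all 36 libraries) summed over each list. The 8 B cell markers, all detected, summed to between 3386 and 3719 CPM at 0 h and to between 63.7 and 138 CPM at 120 hpi, and the 8 macrophage markers went from between 53.9 and 60.4 CPM to between 21690 and 32840 CPM. The 10 fibroblast markers that stand for the feeder cells were also all detected in libraries labelled as B cells, and summed to between 3604 and 3835 CPM at 0 h. In WT cells this sum was 6400 and 6382 CPM at 1 hpi, 8673 and 8486 CPM at 18 hpi and 225 and 195 CPM at 120 hpi. At 18 hpi it was lower in R35A cells (5195 and 5226 CPM) and in R35K cells (4189 and 4149 CPM). All 7 granulocyte markers summed to at most 50.3 CPM and all 5 T and NK cell markers to at most 1.42 CPM in any library. In bulk RNA, fewer cells of a type and less RNA per cell cannot be told apart.

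Promoter sequence was available for 40 of the 48 genes, as RefSeq windows of 250 bases before each start on GRCm38.p6, with 43 windows because of alternative starts. Motifs of 5 kinds were searched on both strands. The antioxidant response element TGACNNNGC, bound by the Nrf1 and Nrf2 factors that drive proteasome genes, was in 5 of 43 member windows (11.6%) and in 10.2% of the 32851 windows of all genes. Shares for the interferon response element GAAANNGAA were 6.98% and 7.13%, and for the gamma activated site TTCNNNGAA 4.65% and 7.02%. The C/EBP site TTGCNNAA was in 6.98% of member windows and 9.56% of all, and the PU.1 site GAGGAAGT in 6.98% and 2.44%. Both of these member shares rest on 3 of 43 windows, and no difference between shares was tested. Of the 6 exchangeable catalytic genes, 5 had a window and 3 of these held a motif, printed here 5′ to 3′ in lower case with the motif in capitals, to place the immunoproteasome gene Psmb8 beside 2 of the constitutive genes.
Psmb5, antioxidant response element, chr14:54618024-54618052, minus strand: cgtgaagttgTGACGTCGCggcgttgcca
Psmb6, antioxidant response element, chr11:70525338-70525356, plus strand: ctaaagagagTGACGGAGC
Psmb8, gamma activated site, chr17:34198088-34198116, plus strand: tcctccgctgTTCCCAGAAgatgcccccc
A match is a description of these letters and not evidence of binding, and windows of the other genes without a match say nothing of the factors.

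At 0 h the genes differed widely in level, compared here as CPM per kilobase of merged exons (mean of the 6 uninduced libraries). Psma6, an α-ring subunit, was the most abundant at 175 (range 169 to 183), followed by the 19S subunit Psmd8 at 129 and the ATPase Psmc5 at 113. The constitutive catalytic genes were Psmb6 at 83.3, Psmb5 at 25.2 and Psmb7 at 23.3, and the immunoproteasome genes Psmb8 at 24.2, Psmb10 at 20.8 and Psmb9 at 10.5. Neighbours in this order were often not separable, as Psmb5 (22.9 to 26.9), Psmb8 (23.4 to 25.3) and Psmb7 (21.7 to 25.3) overlapped across the 6 libraries. The lowest were Psme2b at 2.30 and Psma8 at 0.281. Per merged exon length, levels within a pair were therefore close for Psmb8 and Psmb5 and for Psmb10 and Psmb7, while Psmb6 stood above Psmb9. These levels and their order depend on the annotated lengths. Merged exons had 3381 bases for Psmb8 and 899 for Psmb5, and 1705 for Psmb10 and 3421 for Psmb7. In CPM, WT cells at 0 h had means of 82.6 for Psmb8 and 22.1 for Psmb5, and of 38.1 for Psmb10 and 84.1 for Psmb7.

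**Figure D1:**
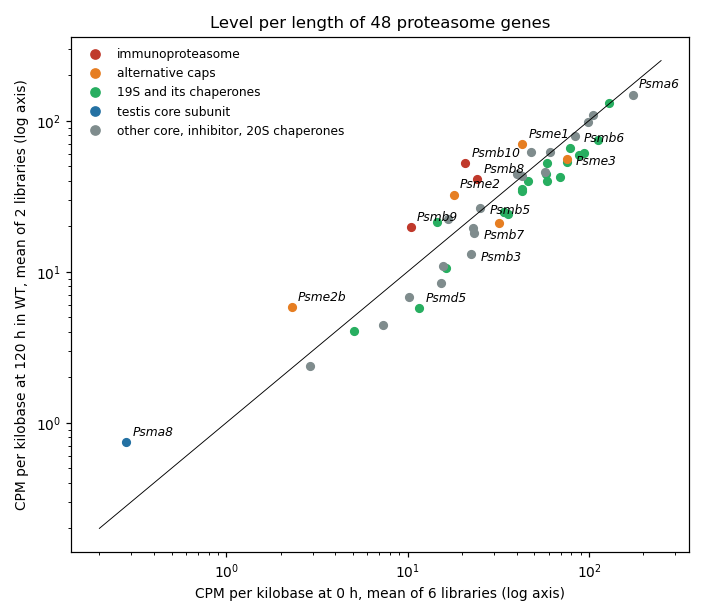
Level of each of the 48 genes as CPM per kilobase of merged exons, at 0 h (x axis, mean of 6 libraries) and at 120 hpi in WT cells (y axis, mean of 2 libraries), both on log axes, with the line of equality. Psmb8, Psmb9, Psmb10, Psme1 and Psme2 lie above the line, most 19S genes (green) below it, and Psma8 is at the bottom with 0.281 at 0 h.

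A gene was called changed at an adjusted p (edgeR's quasi-likelihood test, Benjamini-Hochberg over all genes of the fit) under 0.05 with a change of at least 1.5-fold, and all 48 passed the filter on low counts in every fit. Of the 48, 28 were called at least once in the 15 comparisons of an induced group with 0 h of the same construct, and 20 never. The share of all genes called at least once was not computed, so this count cannot be set against other genes. In WT cells no gene was called higher and 4 lower at 1 hpi (8.33%, against 10.7% of all 16988 genes higher and 9.27% lower). The later counts were 0 higher and 5 lower after 3 h (12.03% and 11.5% of all genes), 0 and 8 after 6 h (15.1% and 14.7%), and 0 and 10 after 18 h (23.9% and 23.2%). The zeros rest on edgeR with the fold threshold. At an unadjusted p under 0.05 without it, 3, 4, 2 and 4 of the 48 were higher at these 4 times in turn, and DESeq2 called 4, 5, 7 and 8 in either direction. At 120 hpi 6 genes were higher and 15 lower, against 23.1% and 40.2% of all genes, so that 12.5% and 31.2% of the proteasome genes compare with larger shares of the transcriptome.

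In R35A cells the counts of higher and lower genes were 1 and 6 after 1 h (all genes 18.3% and 18.9%), 1 and 5 after 3 h (17.9% and 18.97%), 1 and 7 after 6 h (18.5% and 19.2%), 1 and 6 after 18 h (20.96% and 21.6%) and 8 and 6 after 120 h (24.2% and 38.95%). In R35K cells they were 0 and 6 after 1 h (15.5% and 17.4% of 16434 genes), 1 and 5 after 3 h (15.9% and 16.8%), 0 and 6 after 6 h (16.3% and 17.8%), 1 and 5 after 18 h (18.4% and 20.5%) and 5 and 14 after 120 h (25.4% and 38.5%). The 0 in R35K cells at 1 and 6 hpi compare with 3 and 2 genes higher at an unadjusted p under 0.05 without the fold threshold, and DESeq2 called 3 genes in either direction at both times. The share of the 48 genes called lay below that of all genes in each of these comparisons and directions, apart from the lower genes in WT cells at 6 hpi (16.7% against 14.7%). The median change of the 48 genes lay between -0.11 and -0.24 (log2) at 1 to 18 hpi in all constructs, with the median of all genes between -0.04 and 0.02. At 120 hpi the medians were -0.42 in WT, -0.20 in R35A and -0.36 in R35K cells, and those of all genes -0.36, -0.31 and -0.28.

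The changes at 120 hpi depended on the scaling of the libraries. With DESeq2's size factors in place of TMM the median of all genes at 120 hpi was -0.201 in WT, -0.177 in R35A and -0.139 in R35K cells, a shift of more than 0.1, and it also moved from 0.024 to 0.139 in WT cells at 18 hpi. The split of higher and lower calls in WT cells at 120 hpi was then 8 and 6 instead of 6 and 15, and that in R35K cells 7 and 8 instead of 5 and 14. A fit of all 36 libraries with TMM gave 7 and 11 in WT and 7 and 9 in R35K cells, with medians of all genes of -0.231 and -0.198. Fold changes against 0 h come from fits of WT with R35A libraries or of R35K libraries alone, each with TMM of its own, so that they are lower at 120 hpi than the CPM values show. For Psmb8 in WT cells the 36-library fit gave 0.75 where the fit of WT and R35A libraries gave 0.62. Changes at 120 hpi are therefore also given relative to the median of all genes. Leaving out WT replicate 1 or 2 at 120 hpi gave 6 and 10 or 8 and 10 called WT genes.

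**Figure D2:**
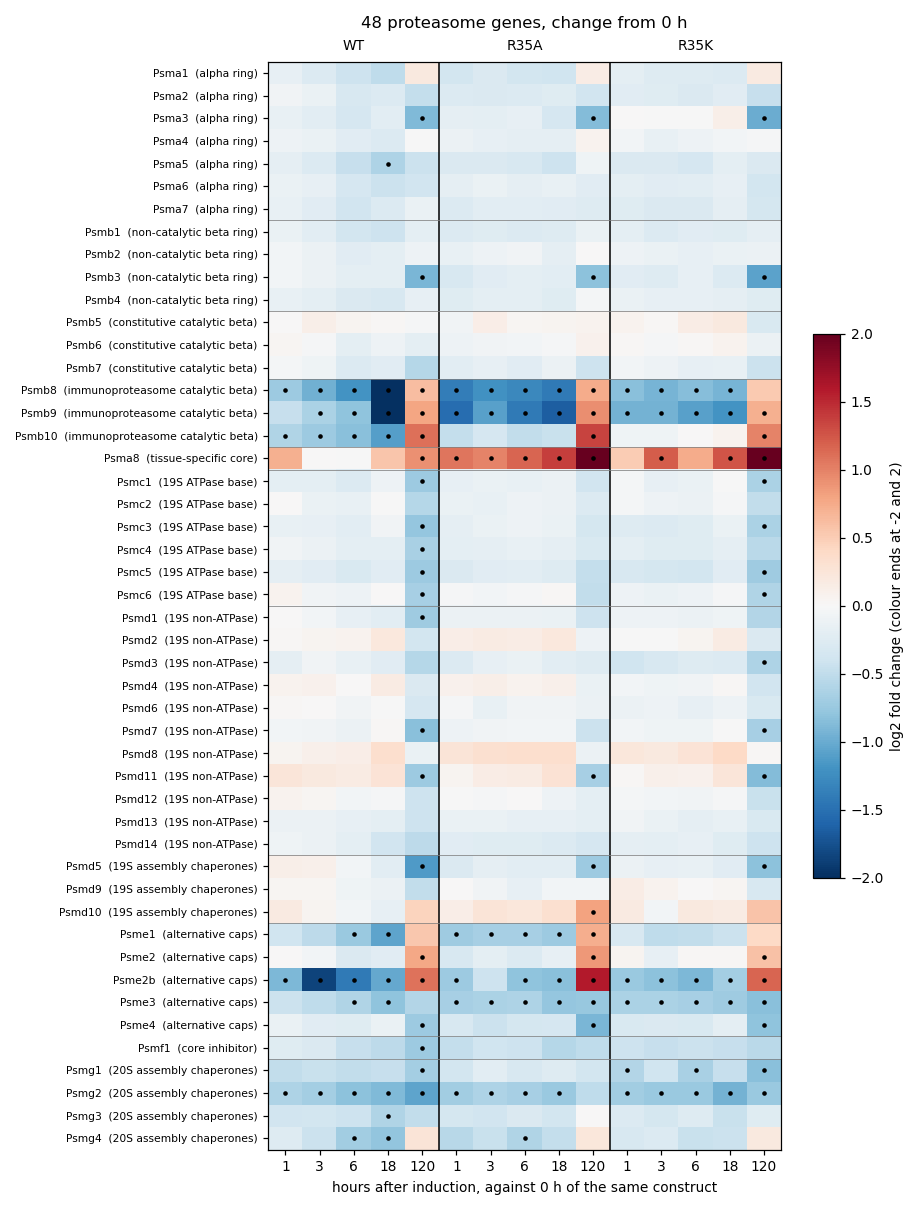
Log2 fold change against 0 h of the same construct (colour, ends at -2 and 2) for the 48 genes from top to bottom by role, at the 5 induced times in WT, R35A and R35K cells, with a dot where the gene was called. Psmb8 and Psmb9 are blue at 1 to 18 hpi and red at 120 hpi in all constructs, whereas most genes of the α ring, the β ring and the 19S cap stay pale until 120 hpi.

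In WT cells the immunoproteasome genes fell within hours and ended above their start. Psmb8, the immunoproteasome replacement of Psmb5, was at 80.4 and 84.8 CPM in WT cells at 0 h, 51.3 and 47.3 at 1 hpi, 41.0 and 43.7 at 3 hpi, 36.9 and 35.9 at 6 hpi, 18.12 and 18.9 at 18 hpi and 141 and 137 at 120 hpi. Every induced WT library up to 18 hpi was below both at 0 h, the libraries at 18 hpi were the lowest and those at 120 hpi the highest, without overlap. The log2 fold change was -0.72 ± 0.059 (SE) at 1 hpi, -2.16 ± 0.070 at 18 hpi (edgeR adjusted p = 6.07e-32) and 0.62 ± 0.054 at 120 hpi (edgeR adjusted p = 6.73e-15). The last value was 0.98 above the median of all genes, but it was 0.55 and no longer called when the low-count filter was dropped.

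Psmb9, the replacement of Psmb6, is encoded beside Psmb8 in the MHC region of chromosome 17 (34181987 to 34187764, minus strand, and 34197721 to 34201454, plus strand, in GENCODE vM21 on GRCm38), and its exons overlap those of Tap1 on the other strand, as those of Psmb8 overlap Gm20496. Since the strand setting of the counting is not given in the sources used here, reads of such partners may not be told apart. In WT cells it was at 39.1 and 37.5 CPM at 0 h, 26.0 and 28.5 at 1 hpi, 23.4 and 26.2 at 3 hpi, 23.0 and 21.4 at 6 hpi, 7.72 and 8.57 at 18 hpi and 74.6 and 70.0 at 120 hpi. The largest step down came between 6 and 18 hpi. At 1 hpi its change of -0.47 was under the 1.5-fold threshold, at 3 hpi it was -0.63 ± 0.075 and at 18 hpi -2.23 ± 0.092 (edgeR adjusted p = 2.03e-27). Without WT replicate 1 at 3 hpi the change there was -0.55 and was not called. At 120 hpi it was 0.79 ± 0.068 higher than at 0 h (edgeR adjusted p = 4.26e-15), 1.15 above the median of all genes.

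Psmb10, the replacement of Psmb7, lies apart on chromosome 8 (105935735 to 105938444, minus strand) and had the smallest change at 18 hpi and the largest at 120 hpi of the 3 genes in WT cells. In WT cells it was at 37.2 and 39.0 CPM at 0 h, 24.8 and 24.6 at 1 hpi, 22.5 and 23.5 at 3 hpi, 21.5 and 21.5 at 6 hpi, 17.7 and 18.06 at 18 hpi and 91.8 and 87.2 at 120 hpi. Groups did not overlap between 0 h and any later time. The log2 fold change was -0.61 ± 0.074 at 1 hpi (edgeR adjusted p = 9.08e-10), where it was -0.58 and not called without WT replicate 2 at 0 h. It was -1.10 ± 0.079 at 18 hpi (edgeR adjusted p = 9.94e-18) and 1.104 ± 0.065 at 120 hpi (edgeR adjusted p = 2.95e-21), the latter 1.46 above the median of all genes.

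In R35A cells most of the fall was reached at the first time point. Psmb8 was at 80.7 and 79.1 CPM at 0 h, 32.9 and 29.2 at 1 hpi, 37.6 and 33.0 at 3 hpi, 32.7 and 33.3 at 6 hpi, 27.4 and 32.7 at 18 hpi and 150 and 142 at 120 hpi. From 1 to 18 hpi the libraries stayed between 27.4 and 37.6 CPM. Psmb9 went from 36.8 and 37.1 CPM to 12.7 and 13.4 at 1 hpi, 17.8 and 17.9 at 3 hpi, 14.95 and 13.2 at 6 hpi, 12.1 and 11.7 at 18 hpi and 74.6 and 79.3 at 120 hpi. At 1 hpi the log2 fold changes were -1.39 ± 0.062 for Psmb8 (edgeR adjusted p = 6.74e-26) and -1.53 ± 0.081 for Psmb9 (edgeR adjusted p = 1.02e-22). Psmb10 was at 34.0 and 33.8 CPM at 0 h, between 23.5 and 28.1 CPM from 1 to 18 hpi, and at 102 and 86.8 CPM at 120 hpi. Its early changes, -0.48 at 1 hpi and -0.45 at 18 hpi, were under the fold threshold. At 120 hpi all 3 genes were higher, by 0.75 ± 0.052 for Psmb8, 0.94 ± 0.065 for Psmb9 and 1.35 ± 0.063 for Psmb10 (edgeR adjusted p = 2.11e-25 for the last).

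R35K cells had the highest Psmb8, Psmb9 and Psmb10 values of the 3 constructs at 18 hpi. Psmb8 was at 81.1 and 85.6 CPM at 0 h, 48.8 and 48.2 at 1 hpi, 45.1 and 44.8 at 3 hpi, 46.3 and 50.1 at 6 hpi, 45.5 and 44.6 at 18 hpi and 135 and 122 at 120 hpi. After the first hour it lay on a plateau. Psmb9 was at 37.6 and 41.6 CPM at 0 h, between 17.2 and 22.1 CPM from 1 to 18 hpi and at 73.5 and 65.3 CPM at 120 hpi. Its log2 fold change was -0.94 ± 0.075 at 1 hpi, -1.19 ± 0.077 at 18 hpi and 0.71 ± 0.064 at 120 hpi. Psmb8 was at -0.83 ± 0.055, -0.93 ± 0.055 and 0.52 ± 0.050 at these times, the last of them not called but called with DESeq2's size factors (0.66) and in the 36-library fit (0.62). Psmb10 stayed near its start in the R35K libraries until 18 hpi, with 34.1 and 34.6 CPM at 0 h, 34.1 and 33.0 at 1 hpi, 39.3 and 34.8 at 18 hpi and 76.8 and 69.8 at 120 hpi. It was called in R35K cells at 120 hpi (0.99 ± 0.068, edgeR adjusted p = 2.71e-15) and at no earlier time.

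**Figure D3:**
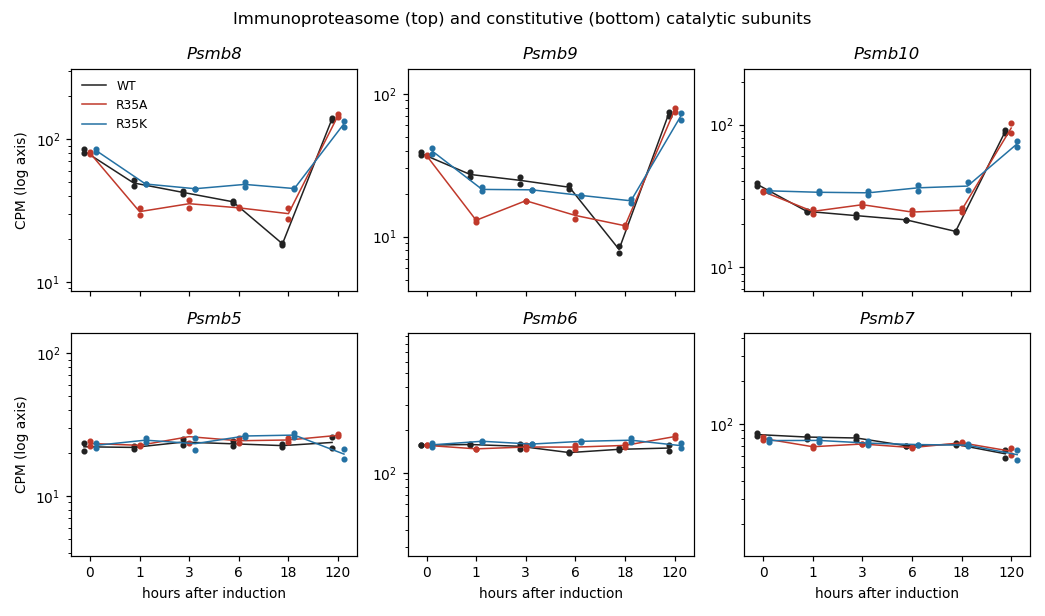
CPM of the immunoproteasome genes Psmb8, Psmb9 and Psmb10 (top) and of the constitutive genes Psmb5, Psmb6 and Psmb7 (bottom) over hours after induction, with CPM on log axes that span the same ratio in every panel and the times evenly spaced, with a point per library and a line through the mean of 2. Psmb8 in WT cells falls from 80.4 and 84.8 to 18.12 and 18.9 CPM at 18 h and ends at 141 and 137 CPM, while the bottom panels stay nearly level.

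The constitutive counterparts kept their levels within the fold threshold at every time and in every construct. Psmb5 was at 20.6 and 23.6 CPM in WT cells at 0 h, 21.9 and 23.1 at 18 hpi and 25.7 and 21.6 at 120 hpi. Psmb6 was at 156 and 156, 148 and 144, and 157 and 141 CPM at these times, and Psmb7 at 86.7 and 81.6, 73.0 and 70.7, and 65.3 and 58.1 CPM. The WT libraries overlapped with 0 h for Psmb5 at both times and for Psmb6 at 120 hpi, whereas those of Psmb6 at 18 hpi and of Psmb7 at both times lay below it. The lowest change of the 3 genes was that of Psmb7 at 120 hpi, -0.57 in WT, -0.42 in R35A and -0.43 in R35K cells, and the highest that of Psmb5 at 18 hpi in R35K cells, 0.20.

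A ratio of an immunoproteasome gene to its counterpart within a library is free of the scaling, and it was described without a test. The level of a ratio per length depends on the annotated exon lengths, while its change over time does not. Per merged exon length, Psmb8 counts stood to those of Psmb5 at 1.04 and 0.957 to 1 in WT cells at 0 h, 0.220 and 0.217 at 18 hpi and 1.46 and 1.68 at 120 hpi. For Psmb9 to Psmb6 the ratios were 0.129 and 0.123, 0.0267 and 0.0305, and 0.244 and 0.254, and for Psmb10 to Psmb7 0.862 and 0.960, 0.485 and 0.513, and 2.82 and 3.01. The WT libraries at 18 hpi were thus lowest and those at 120 hpi highest for each pair. At 18 hpi the mean log2 ratio was changed by -2.19 for Psmb8 to Psmb5, -2.14 for Psmb9 to Psmb6 and -0.87 for Psmb10 to Psmb7 in WT cells, by -1.50, -1.63 and -0.33 in R35A cells and by -1.13, -1.26 and 0.21 in R35K cells. At 120 hpi the changes were 0.65, 0.98 and 1.68 in WT, 0.68, 0.85 and 1.77 in R35A and 0.83, 0.83 and 1.42 in R35K cells. For Psmb10 to Psmb7 at 120 hpi the values of single libraries were 1.97 and 1.57 in R35A, 1.63 and 1.73 in WT and 1.37 and 1.48 in R35K cells.

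**Figure D4:**
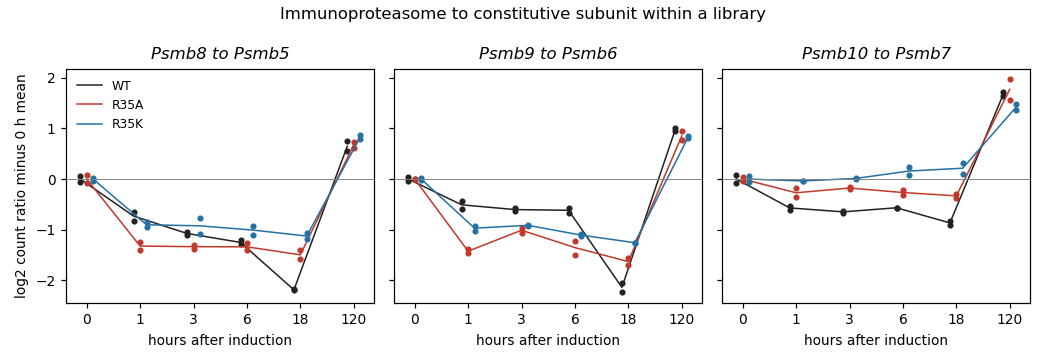
Log2 ratio of counts of Psmb8 to Psmb5, Psmb9 to Psmb6 and Psmb10 to Psmb7 within each library, minus the mean at 0 h of the same construct, over hours after induction (evenly spaced). Points are libraries and lines the mean of 2. The ratios of the first pair reach -2.18 and -2.20 in WT cells at 18 h, R35A cells are at -1.25 and -1.40 by 1 h, and all constructs are above 0 at 120 h.

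Markers of other cells moved over the same hours. The B cell list fell in WT cells from 3652 and 3719 CPM at 0 h to 1697 and 1695 at 1 hpi and 329 and 332 at 18 hpi, and in R35A cells to 519 and 513 already at 1 hpi. The macrophage list was at 900 and 884 CPM in WT cells at 1 hpi, 3876 and 3859 in R35A cells and 8273 and 8136 in R35K cells. The feeder list was at 6029 and 6028 CPM in R35A cells at 1 hpi, near the 6400 and 6382 CPM of WT cells, and at its maximum in WT cells at 18 hpi, where Psmb8, Psmb9 and Psmb10 were lowest. The part of these lists in the changes of the proteasome genes was not tested.

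The α ring, formed by Psma1 to Psma7 and gating the entrance of the core, was slightly lower up to 18 hpi, mostly without a call. All 7 genes had negative changes at every WT time up to 18 hpi, with medians of -0.15, -0.20, -0.33 and -0.28 (log2) in order of time. At 18 hpi Psma5 was called in WT cells, with 30.2 and 33.3 CPM at 0 h and 20.2 and 21.1 CPM at 18 hpi (log2 fold change -0.62 ± 0.076, edgeR adjusted p = 4.45e-10). Its call was lost with DESeq2's size factors (-0.51) and without WT replicate 2 at 0 h (-0.56). Psma3 was the called α gene of 120 hpi in all constructs. It was at 28.8 and 30.2 CPM in WT cells at 0 h and at 20.0 and 14.7 CPM at 120 hpi, and it fell to 18.0 and 17.6 CPM in R35A and 14.2 and 14.0 CPM in R35K cells. The log2 fold changes were -0.89 ± 0.097, -0.87 ± 0.091 and -0.99 ± 0.091, of which the WT one was -0.56 and not called without WT replicate 2 at 120 hpi. Psma1 went the other way without being called, from 147 and 144 CPM at 0 h to 184 and 180 CPM at 120 hpi in WT cells (0.20).

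Among the non-catalytic β-ring genes Psmb1, Psmb2, Psmb3 and Psmb4, 1 was called. Psmb3 was at 51.4 and 51.8 CPM in WT cells at 0 h, 45.0 and 45.7 at 18 hpi and 31.1 and 28.8 at 120 hpi, and at 35.2 and 30.9 CPM in R35A and 25.6 and 25.02 CPM in R35K cells at 120 hpi. All 6 libraries at 120 hpi lay below all at 0 h. Its log2 fold change at 120 hpi was -0.91 ± 0.067 in WT, -0.81 ± 0.062 in R35A and -1.07 ± 0.068 in R35K cells (edgeR adjusted p = 3.60e-16 for the last). The other non-catalytic β genes were between -0.41 and 0.01 in every comparison with 0 h.

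The 6 ATPases of the 19S base, which unfold substrates and feed them into the core, were not called before 120 hpi in any construct, with changes between -0.36 and 0.06. At 120 hpi 5 of 6 were called lower in WT cells, 0 in R35A and 4 in R35K cells, against 40.2%, 38.95% and 38.5% of all genes, and none was called higher, against 23.1%, 24.2% and 25.4%. These counts are from edgeR with the fold threshold. At an unadjusted p under 0.05, and also at an adjusted p under 0.05 without the threshold, all 6 were lower and 0 higher in each construct, and DESeq2 with the threshold called 1 lower in WT cells and 0 in the others. Of all genes, 82.3% in WT, 82.6% in R35A and 83.6% in R35K cells had an unadjusted p under 0.05 in either direction at 120 hpi. Psmc3, with the largest change of the 6 in WT cells, was at 246 and 253 CPM in WT cells at 0 h and 166 and 152 at 120 hpi, at 234 and 246 and then 211 and 199 in R35A cells, and at 247 and 248 and then 180 and 162 in R35K cells. Every library at 120 hpi was below those at 0 h. The log2 fold changes were -0.78 ± 0.042, -0.35 ± 0.040 and -0.63 ± 0.043, or -0.42, -0.05 and -0.36 relative to the median of all genes. The most negative ATPase was Psmc6 in R35A cells (-0.50) and Psmc5 in R35K cells (-0.72). Psmc1 (-0.73) and Psmc5 (-0.72) were called in WT cells and lost the call with DESeq2's size factors (-0.57 and -0.56), as did Psmc4 (-0.65 and -0.49) and Psmc6 (-0.67 and -0.51). Psmc5 without WT replicate 2 at 120 hpi was at -0.53, Psmc4 at -0.44 and Psmc6 at -0.57, and Psmc6 without replicate 1 at -0.51, all not called. Psmc2, at -0.57, was the ATPase not called in WT cells. In R35K cells the 4 called ATPases also lay near the threshold. With DESeq2's size factors Psmc1 was at -0.49, Psmc3 at -0.50, Psmc5 at -0.58 and Psmc6 at -0.47, and without R35K replicate 2 at 120 hpi they were at -0.42, -0.47, -0.56 and -0.50, none of them called. Psmc6 was also lost without R35K replicate 1 at 120 hpi (-0.53).

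Of the 11 non-ATPase genes, 3 were called lower at 120 hpi in WT cells, 1 in R35A and 3 in R35K cells, smaller shares than the 40.2%, 38.95% and 38.5% of all genes. Without the fold threshold 11, 11 and 10 of the 11 were lower at an edgeR adjusted p under 0.05. Of all genes, 82.3%, 82.6% and 83.6% had an unadjusted p under 0.05 in either direction in these comparisons. Psmd11, a subunit of the lid, fell in all constructs, from 103 and 103 CPM at 0 h to 67.1 and 68.8 at 120 hpi in WT cells, from 103 and 105 to 71.0 and 71.0 in R35A and from 105 and 103 to 61.3 and 60.7 in R35K cells. Its values had first been higher, at 127 and 124 CPM in WT cells at 18 hpi (0.28, under the fold threshold), so that the groups at 18 and 120 hpi stood on either side of 0 h. The log2 fold change at 120 hpi was -0.73 ± 0.044 in WT, -0.67 ± 0.042 in R35A and -0.87 ± 0.046 in R35K cells. The WT call was lost with DESeq2's size factors (-0.57) and without WT replicate 1 at 120 hpi (-0.58), and the R35A call with these factors (-0.54) and without either R35A replicate at 120 hpi (-0.54 and -0.55). Psmd7, another lid subunit, went from 159 and 156 to 99.2 and 93.8 CPM in WT cells (-0.83 ± 0.047), from 160 and 157 to 123 and 133 CPM in R35A cells (-0.43) and from 152 and 158 to 107 and 102 CPM in R35K cells (-0.67 ± 0.045). Psmd1, the base scaffold, was called in WT cells (-0.71 ± 0.043) but was at -0.55 with DESeq2's size factors and at -0.55 without WT replicate 1 at 120 hpi. Psmd3 was called in R35K cells at -0.62 ± 0.046. Without R35K replicate 2 at 120 hpi Psmd7 (-0.55) and Psmd3 (-0.54) were no longer called there, nor was Psmd3 without replicate 1 (-0.52), nor either gene with DESeq2's size factors (-0.53 and -0.48). Psmd8 had the smallest change at 120 hpi in WT cells (-0.13) and was the least reduced 19S gene there, with 402 and 401 CPM at 0 h, 513 and 507 at 18 hpi and 407 and 395 at 120 hpi.

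The 3 chaperones that assemble the 19S base moved in different directions. Psmd5 was at 83.0 and 83.6 CPM in WT cells at 0 h, 73.2 and 71.5 at 18 hpi and 41.2 and 41.7 at 120 hpi, with 52.8 and 58.3 CPM in R35A and 51.5 and 50.0 CPM in R35K cells at 120 hpi. All libraries at 120 hpi were below all others of the gene. Its log2 fold change of -1.13 ± 0.056 was the largest decrease of the 48 genes in WT cells at 120 hpi (edgeR adjusted p = 1.42e-24), with -0.73 ± 0.050 in R35A, where it was -0.53 and not called without R35A replicate 1 at 120 hpi, and -0.81 ± 0.053 in R35K cells. Psmd10, also known as gankyrin, was at 22.2 and 20.3 CPM in WT cells at 0 h and 32.9 and 30.3 at 120 hpi, and at 20.3 and 20.5 and then 37.4 and 40.0 CPM in R35A cells. It was called in R35A cells (0.80 ± 0.082, edgeR adjusted p = 1.21e-12) and not in WT (0.44) or R35K (0.57) cells. With DESeq2's size factors it was called in these as well (0.60 and 0.71), and its difference between R35A and WT cells at 120 hpi was 0.30 ± 0.082, under the fold threshold. Psmd9 was not called in any comparison.

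Among the alternative caps in WT cells both PA28 genes ended above their start, and PA28γ and PA200 below it. Psme1, the α subunit of PA28, was at 98.5 and 96.9 CPM in WT cells at 0 h, 73.6 and 73.1 at 1 hpi, 66.0 and 69.3 at 3 hpi, 59.0 and 59.6 at 6 hpi, 46.6 and 47.3 at 18 hpi and 155 and 155 at 120 hpi. Every time point stood apart from 0 h. The log2 fold change was -1.06 ± 0.049 at 18 hpi (edgeR adjusted p = 3.24e-25) and 0.54 ± 0.044 at 120 hpi, under the fold threshold but 0.90 above the median of all genes. It was called with DESeq2's size factors (0.70) and in the 36-library fit (0.67). In R35A cells Psme1 was at 93.0 and 92.6 CPM at 0 h, 57.2 and 58.4 at 1 hpi (-0.71 ± 0.047, edgeR adjusted p = 5.03e-19), 54.9 and 58.0 at 18 hpi and 176 and 159 at 120 hpi (0.73 ± 0.043). R35K cells had 91.3 and 97.7 CPM at 0 h, 74.2 and 69.5 at 18 hpi and 139 and 129 at 120 hpi, and no call.

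Psme2, the β subunit of PA28 encoded beside Psme1 on chromosome 14 (Psme1 55578123 to 55581529, Psme2 55587441 to 55591113), was not called before 120 hpi in WT cells (-0.23 at 18 hpi). In WT cells it was at 31.3 and 29.8 CPM at 0 h, 29.9 and 31.0 at 1 hpi, 27.1 and 25.1 at 18 hpi and 55.7 and 58.8 at 120 hpi. The libraries at 120 hpi were far above all others of the construct. Its log2 fold change at 120 hpi was 0.77 ± 0.072 in WT (edgeR adjusted p = 5.75e-14), 0.86 ± 0.067 in R35A and 0.59 ± 0.065 in R35K cells, the last lost (0.56) without R35K replicate 1 at 0 h. Psme2b, a single-exon copy of Psme2, had 30 and 30 counts in WT cells at 0 h, 7 and 12 at 3 hpi, 17 and 17 at 18 hpi and 48 and 58 at 120 hpi. It was called lower in 11 of 15 comparisons with 0 h and higher at 120 hpi in all constructs. Since reads may be split between it and Psme2, and it has at most 76 counts in a library, these values are uncertain. The calls at 1 to 18 hpi in R35A and R35K cells were each lost without at least 1 library, among them R35A replicate 2 at 0 h (-0.51 at 1 hpi) and R35K replicate 1 at 0 h (-0.52 at 1 hpi), and the WT call at 1 hpi without WT replicate 2 at 1 hpi (-0.80).

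Psme3, encoding the nuclear PA28γ, was at 222 and 227 CPM in WT cells at 0 h, 161 and 168 at 1 hpi, 150 and 148 at 6 hpi, 132 and 127 at 18 hpi and 165 and 162 at 120 hpi. It did not regain its starting level. It was called lower in 12 of the 15 comparisons with 0 h, at -0.80 ± 0.036 in WT (edgeR adjusted p = 1.31e-25), -0.77 ± 0.036 in R35A and -0.71 ± 0.042 in R35K cells at 18 hpi. Several of the calls at 1 to 6 hpi sat at the threshold, and with DESeq2's size factors those in R35A and R35K cells and that in WT cells at 6 hpi (-0.55) were lost, with values between -0.54 and -0.58. Psme4, encoding PA200, kept within the threshold up to 18 hpi and fell at 120 hpi, from 269 and 267 to 175 and 179 CPM in WT cells (-0.73 ± 0.042), from 270 and 262 to 146 and 162 CPM in R35A cells (-0.91 ± 0.042) and from 279 and 264 to 158 and 173 CPM in R35K cells (-0.81 ± 0.044). The WT value was -0.57 and not called with DESeq2's size factors, and -0.58 without WT replicate 1 at 120 hpi. Psmf1, encoding the core inhibitor PI31, went from 63.0 and 70.2 to 46.9 and 40.9 CPM in WT cells at 120 hpi (-0.73 ± 0.064), from 65.2 and 65.1 to 51.0 and 48.8 CPM in R35A and from 65.3 and 66.2 to 47.9 and 49.1 CPM in R35K cells. It was called in WT cells alone, and there the value was -0.57 with DESeq2's size factors and -0.50 without WT replicate 2 at 120 hpi, neither called.

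The chaperones Psmg1 to Psmg4 build the 20S core, Psmg1 with Psmg2 and Psmg3 with Psmg4. Psmg2 was lower in 14 of 15 comparisons with 0 h. It was at 28.8 and 27.2 CPM in WT cells at 0 h, 17.0 and 18.9 at 1 hpi, 14.9 and 15.5 at 18 hpi and 16.6 and 12.6 at 120 hpi, at 24.5 and 26.1, then 15.5 and 16.4, then 15.6 and 15.3, and then 18.08 and 20.6 in R35A cells, and at 25.8 and 27.1, 17.2 and 16.7, 13.3 and 15.1, and 17.4 and 16.7 in R35K cells. All induced libraries were below all at 0 h. The log2 fold change in WT cells was -0.62 ± 0.088 at 1 hpi, where it was lost without WT replicate 1 at 0 h (-0.57) or at 1 hpi (-0.54), and -1.06 ± 0.099 at 120 hpi (edgeR adjusted p = 7.86e-14). In R35A cells the call at 3 hpi was lost with DESeq2's size factors (-0.54) and without R35A replicate 2 at 0 h (-0.56) or replicate 1 at 3 hpi (-0.53). Its partner Psmg1 was called at 120 hpi in WT (-0.68) and R35K cells (-0.83) and at 1 and 6 hpi in R35K cells (-0.59 and -0.64). The WT call was lost with DESeq2's size factors (-0.52) and without WT replicate 1 at 120 hpi (-0.50), as were the R35K calls at 1 and 6 hpi without R35K replicate 2 at 0 h (-0.51 and -0.56), without R35K replicate 2 at 1 hpi (-0.57) or replicate 1 at 6 hpi (-0.57), and with DESeq2's size factors (-0.51 and -0.56). Psmg4 dipped in WT cells from 9.53 and 9.62 CPM at 0 h to 4.78 and 6.19 at 18 hpi (-0.80 ± 0.146, edgeR adjusted p = 3.78e-06) and was at 13.8 and 11.2 at 120 hpi (0.26, not called). Its calls at 6 hpi were lost without WT replicate 1 (-0.57) or R35A replicate 2 (-0.45) at that time. Psmg3 was called in WT cells at 18 hpi alone (-0.60 ± 0.138) and lost that call without WT replicate 1 at 0 h (-0.55) or at 18 hpi (-0.52), and with DESeq2's size factors (-0.49).

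Psma8, the α subunit of the testis proteasome, was barely expressed, with 14 and 12 counts in WT cells at 0 h and 26 and 15 at 120 hpi, 12 and 7 and then 54 and 47 in R35A cells, and 10 and 10 and then 40 and 34 in R35K cells. No library at 120 hpi overlapped those at 0 h of its construct, with 2.30 and 1.43 CPM against 0.960 and 0.855 CPM in WT cells, the closest case. The log2 fold change at 120 hpi was 0.92 ± 0.372 in WT (edgeR adjusted p = 0.0222), 2.71 ± 0.326 in R35A (edgeR adjusted p = 1.67e-10) and 2.22 ± 0.311 in R35K cells (edgeR adjusted p = 7.96e-08). The WT call was lost without WT replicate 2 at 0 h (0.83) or replicate 1 at 120 hpi (0.66). It was also called higher in R35A cells at 1, 3, 6 and 18 hpi, and without R35A replicate 2 at 0 h, which had 7 counts, none of these 4 calls remained (0.57, 0.49, 0.66 and 0.88). Those at 1, 3 and 6 hpi were also lost without R35A replicate 2 of the same time (0.97, 0.64 and 0.89). In R35K cells it was higher at 3 and 18 hpi (1.22 and 1.26).

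Before induction no difference between R35A and WT cells was called. At 0 h no proteasome gene was called between R35A and WT cells and no gene of all 16988 (0% higher and 0% lower, edgeR), with 1618 genes (9.52%) and 2 of the 48, both lower in R35A cells, at an unadjusted p under 0.05, and DESeq2 called 0 of the 48. At 1 hpi 0 of 48 were higher and 2 lower in R35A cells, against 8.51% and 10.8% of all genes. For the 0, 2 genes were higher at an unadjusted p under 0.05 and DESeq2 called 2 in either direction. The 2 lower genes were Psmb9, at 12.7 and 13.4 CPM against 26.0 and 28.5 CPM in WT cells (-1.11 ± 0.086, edgeR adjusted p = 4.27e-16), and Psmb8, at 32.9 and 29.2 against 51.3 and 47.3 CPM (-0.71 ± 0.066, edgeR adjusted p = 3.42e-13). Groups did not overlap for either gene. The Psmb8 difference was -0.58 and not called without R35A replicate 2 at 1 hpi. Psmb10 did not differ past the threshold at 1 hpi (-0.04, with 25.8 and 23.5 against 24.8 and 24.6 CPM), and neither did Psme1 (-0.39 ± 0.048).

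The change from 0 h to 1 hpi itself was tested between R35A and WT cells as an interaction. It was 1.06 ± 0.111 (log2) more negative in R35A cells for Psmb9 (edgeR adjusted p = 2.42e-11) and 0.66 ± 0.086 for Psmb8 (edgeR adjusted p = 9.87e-09). No other of the 48 genes was called, giving 0 higher and 2 lower against 5.29% and 8.74% of all genes. For the 0, 2 genes were higher at an unadjusted p under 0.05, and DESeq2 called 2 genes in either direction. Without R35A replicate 2 at 1 hpi the value for Psmb8 was -0.53 and the count was 1.

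By 18 hpi Psmb8 was higher in R35A than in WT cells. At 3 hpi 1 gene was higher and 0 lower in R35A cells (all genes 7.95% and 9.04%), the higher one being the low-count copy Psme2b (1.22 ± 0.356, lost at 0.96 without WT replicate 1). At 6 hpi 0 were higher and 1 lower (6.198% and 7.52%), namely Psmb9, at 14.95 and 13.2 against 23.0 and 21.4 CPM (-0.66 ± 0.087, edgeR adjusted p = 8.13e-09), which was -0.56 and not called without R35A replicate 2. At 18 hpi 1 was higher and 0 lower (6.905% and 3.17%), Psmb8, at 27.4 and 32.7 CPM in R35A against 18.12 and 18.9 CPM in WT cells (0.70 ± 0.079, edgeR adjusted p = 2.31e-10). Without R35A replicate 2 at 18 hpi this was 0.57 and not called, and without WT replicate 2 at 18 hpi a further gene was called. Under the fold threshold, Psmb9 was also higher at 18 hpi (12.1 and 11.7 against 7.72 and 8.57 CPM). So was Psmb10 (24.3 and 26.0 against 17.7 and 18.06 CPM). The 3 immunoproteasome genes, at 0.48 to 0.70, all had an edgeR adjusted p under 0.05. At an unadjusted p under 0.05 without the fold threshold, 17 genes were lower at 3 hpi, 12 higher at 6 hpi and 3 lower at 18 hpi, and DESeq2 called 1 gene at each of these times. The feeder list was lower in R35A than in WT cells at 18 hpi, with 5195 and 5226 against 8673 and 8486 CPM, and the B cell list was at 226 and 226 against 329 and 332 CPM. The part of these lists in the differences of the immunoproteasome genes was not tested.

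At 120 hpi 1 of 48 genes was higher in R35A than in WT cells and 0 lower (12.4% and 6.38% of all genes). The gene was Psma8, at 54 and 47 counts against 26 and 15 (1.11 ± 0.279, edgeR adjusted p = 0.000756). The interaction gave the same count of 1 higher and 0 lower (9.85% and 4.63%), with a change from 0 h that was 1.79 ± 0.528 greater in R35A cells (edgeR adjusted p = 0.00616), lost (1.28) without R35A replicate 2 at 0 h. For the zeros, 4 and 3 genes were lower at an unadjusted p under 0.05, and DESeq2 called 1 gene in each test. Counts rose to 2 without WT replicate 1 at 120 hpi in the direct comparison and to between 2 and 3 in the interaction without R35A replicate 1 at 120 hpi, WT replicate 2 at 0 h or WT replicate 1 at 120 hpi. The 17 genes of the 19S cap all had positive values in R35A against WT cells, from 0.01 to 0.42 with a median of 0.26 against 0.05 for all genes, and none reached 1.5-fold. Without the fold threshold 15 of them were higher at an edgeR adjusted p under 0.05, and 15 in the interaction. Of all genes, 51.4% had an unadjusted p under 0.05 in either direction in the direct comparison. Among the 10 feeder markers 8 were called higher in R35A cells and 0 lower (median 1.48), and their part in these values was not tested. Psmb8 (0.08), Psmb9 (0.10) and Psmb10 (0.08) did not differ past the threshold at this time.

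**Figure D5:**
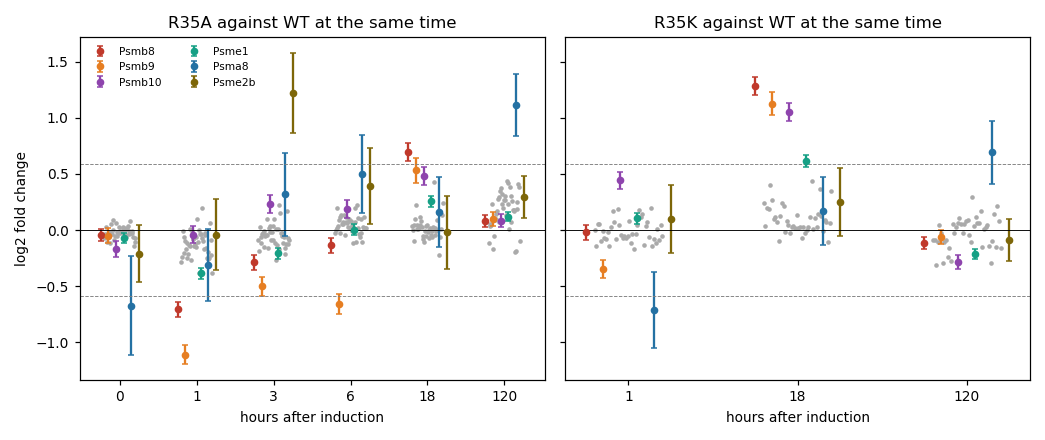
Log2 fold change of the 48 genes in R35A (left) and R35K (right) against WT cells at the same hour, from 2 libraries each. Coloured points with SE bars are 6 named genes, grey points the other 42, and dashed lines mark 1.5-fold. Psmb9 and Psmb8 are at -1.11 and -0.71 in R35A cells at 1 h, and at 1.13 and 1.28 in R35K cells at 18 h.

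R35K cells were compared with WT cells at 1, 18 and 120 hpi in a fit of all 36 libraries with 17277 genes. At 1 hpi 0 of the 48 were called in either direction (9.24% of all genes higher and 5.99% lower, edgeR), with 6 higher and 9 lower at an unadjusted p under 0.05 and 0 called by DESeq2. At 18 hpi 4 were higher and 0 lower (10.5% and 4.78%), and these were the immunoproteasome genes and Psme1. Psmb8 was at 45.5 and 44.6 against 18.12 and 18.9 CPM in WT cells (1.28 ± 0.076, edgeR adjusted p = 2.31e-21), Psmb9 at 18.4 and 17.2 against 7.72 and 8.57 CPM (1.13 ± 0.103, edgeR adjusted p = 6.10e-14) and Psmb10 at 39.3 and 34.8 against 17.7 and 18.06 CPM (1.05 ± 0.080, edgeR adjusted p = 6.73e-17). No library of either construct overlapped the other. Psme1 was at 74.2 and 69.5 against 46.6 and 47.3 CPM (0.62 ± 0.052, edgeR adjusted p = 4.42e-15) and lost its call with DESeq2's size factors (0.51), without the low-count filter (0.57) and without R35K replicate 1 at 18 hpi (0.57). For the 0 lower genes, an unadjusted p under 0.05 also gave 0, and DESeq2 called 3 genes. The feeder list was lower in R35K than in WT cells here (4189 and 4149 against 8673 and 8486 CPM) and the B cell list similar (350 and 341 against 329 and 332 CPM), and the macrophage list was at 5438 and 5220 against 861 and 862 CPM. Their part in the 4 differences was not tested.

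At 120 hpi 1 gene was higher and 0 lower in R35K than in WT cells (9.87% and 3.97% of all genes). It was again Psma8, at 40 and 34 against 26 and 15 counts (0.69 ± 0.281, edgeR adjusted p = 0.0452). The call was lost with DESeq2's size factors, with DESeq2, without the low-count filter, with a replicate block, and without R35K replicate 1 (0.56) or WT replicate 2 (0.41) at 120 hpi. For the 0, 17 genes were lower at an unadjusted p under 0.05.

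Genes that act with the immunoproteasome were followed as a list of 14 MHC class I antigen processing genes, all tested. In WT cells 0 were called higher and 6 lower at 18 hpi (23.9% and 23.2% of all genes) and 7 higher and 0 lower at 120 hpi (23.1% and 40.2%), by edgeR with the fold threshold. For these zeros, 3 were higher at 18 hpi and 2 lower at 120 hpi at an unadjusted p under 0.05, and DESeq2 called 1 and 0. The medians were -0.40 and 0.57 (log2), with 0.02 and -0.36 for all genes. Erap1, which trims peptides in the endoplasmic reticulum, was lowest at 18 hpi (-1.60 ± 0.055), with the MHC class I transactivator Nlrc5 at -1.35 ± 0.052, H2-K1 at -0.94 ± 0.035, the peptide transporter gene Tap2 at -0.76 ± 0.058 and Tapbpl at -0.68 ± 0.114. At 120 hpi H2-D1 was at 2.08 ± 0.034, Irf1 at 1.94 ± 0.051 and B2m, the MHC class I light chain, at 1.52 ± 0.030. In R35A cells 0 were called higher and 5 lower at 1 hpi (18.3% and 18.9% of all genes), among them Erap1 (-0.95), Nlrc5 (-0.81), Tap1 (-0.67) and Tap2 (-0.66), and 10 were called higher and 0 lower at 120 hpi (24.2% and 38.95%). For these zeros, 5 were higher at 1 hpi and 1 lower at 120 hpi at an unadjusted p under 0.05, and DESeq2 called 1 and 0. R35K cells differed early, with 3 called higher and 0 lower at 1 hpi (15.5% and 17.4% of all genes). There 4 were higher and 0 lower at 6 hpi (16.3% and 17.8%), and 3 and 2 at 18 hpi (18.4% and 20.5%). Without the fold threshold 6 were lower at 1 hpi and 6 at 6 hpi at an edgeR adjusted p under 0.05. Psmb8 and Psmb9 were called lower in R35K cells at these times. Against WT cells at 18 hpi 7 of 14 were called higher in R35K cells (10.5% of all genes) and 3 in R35A cells (6.905%). None was called lower in either by edgeR with the fold threshold (4.78% and 3.17% of all genes) or by DESeq2, and 2 and 3 were lower at an unadjusted p under 0.05.

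A second list held 11 genes that work on the proteasome without bearing these names, all tested. In WT cells 1 was called higher and 2 lower at 18 hpi (23.9% and 23.2% of all genes), and 2 higher and 4 lower at 120 hpi (23.1% and 40.2%), none of these shares of the 11 standing above that of all genes. Nfe2l1, encoding the factor Nrf1 that drives proteasome genes, was higher at 18 hpi (0.84 ± 0.034, edgeR adjusted p = 1.19e-27) and not at 120 hpi (-0.15) in WT cells, and it was higher in R35A than in WT cells at 120 hpi (0.68 ± 0.035, edgeR adjusted p = 1.33e-22). Uchl5, a deubiquitinase of the 19S cap, fell to -1.33 ± 0.076 at 18 hpi in WT cells and to -1.15 ± 0.072 at 1 hpi in R35A cells. At 120 hpi Sem1, the smallest 19S subunit, and Ddi2, the protease that activates Nrf1, were higher in WT cells (0.79 ± 0.044 and 0.83 ± 0.045), while Txnl1, a thioredoxin bound to the 19S cap, was lower (-0.91 ± 0.045). Pomp, the maturation factor of the core, was not called in WT cells at 18 hpi (-0.16) or 120 hpi (-0.05).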

How the data were processed

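RNA of 36 libraries (TruSeq stranded mRNA, single-end reads) was analysed. The authors aligned reads to mm10 with STAR 2.5.0a and deposited counts per gene, and DESeq2 1.14.1 gave the deposited log2 normalized values, which are log2 of counts divided by size factors. The annotation release and the strand column behind the counts are not given in the sources used here. The log2 tables were used to choose the genes and as an alternative for ratios. Each symbol was matched to GENCODE vM21, where 97.1% of 40354 and all 48 members were found.

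Counts were fitted as deposited with edgeR 4.0.16 (R 4.3.3) after filterByExpr and TMM, with WT and R35A together, R35K alone, and all 36 libraries for R35K against WT. Genes with a quasi-likelihood adjusted p under 0.05 and at least 1.5-fold were called. Alternatives were DESeq2 1.42.0, its size factors, no filter, other thresholds, other sets of libraries, a replicate block and leaving out each library. SE is that of the log2 fold change. CPM were scaled with TMM over all 36 libraries, and fold changes with TMM of their own fit. Background shares of called genes have 3 significant digits, or 4 where the third is 0. With 13044456 to 23131776 counts per library, Psma8 and Psme2b, with at most 76 counts in a library, are imprecise.

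Named with values in the text were the catalytic, immunoproteasome, cap, inhibitor and testis genes and those alone called in their role. Also named were some of the members of each role with the largest or smallest change at 1 and 120 hpi in WT cells, R35A cells or R35A against WT cells. Others of these, such as Psma2, are not given with values. Further members were named after their values were seen, and the lists of other genes came with them. The members, roles and lists were chosen with earlier results of these data known. Replicate numbers were not treated as pairs. No library was left out. The values of 1 gene of the antigen processing list are not reported here.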

Additional observations from a re-analysis of the deposited data

Results flagged for a closer look

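The difference between constructs in the change from 0 h was called for 3 gene and time combinations in the interaction test of R35A against WT cells. At 1 hpi it was -0.66 for Psmb8 and -1.06 for Psmb9 (log2, R35A minus WT), and at 120 hpi it was 1.79 for Psma8. In a further case the libraries lay on opposite sides of their 0 h values in WT and R35K cells, barely so for 1 R35K library, and the difference was not tested as an interaction. Psmb10 fell from 37.2 and 39.0 to 17.7 and 18.06 CPM in WT cells by 18 hpi, and the R35K libraries, with 34.1 and 34.6 CPM at 0 h, were at 39.3 and 34.8 CPM, a difference in log2 change of 1.2. Of 720 pairings of a gene, a time and 2 constructs, 32 had libraries that moved in opposite directions without overlap, and in 1 of these a change had been called. The same was not counted over all genes, so the 32 cannot be set against a background.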

How the results depend on the processing

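No called change of a single gene reversed its direction. Of 1629 recomputed calls under the alternatives, 1468 stayed called and 161, from 58 of the 147 calls, fell under a threshold. The 1468 include every call under the looser rules (no fold threshold, or an unadjusted p), where no call could be lost. The 27 within-library ratios moved by less than their replicate spread, which was fixed in advance. Leaving out 1 of 2 replicates moves a mean by less than that spread, and size factors cancel within a library. Counts that moved by more than 1.5 times were those without a fold threshold: 24, 33, 39, 38 and 45 genes in WT, 41, 41, 39, 42 and 39 in R35A and 29, 36, 34, 35 and 44 in R35K cells over the 5 induced times in order, 28, 17, 11, 8 and 31 in R35A against WT cells, 11, 20 and 12 in R35K against WT cells at 1, 18 and 120 hpi, and 17 and 29 in the interactions at 1 and 120 hpi. At the looser unadjusted p under 0.05, the shares of all genes in the same order were 55.4%, 58.7%, 63.5%, 73.4% and 82.3% in WT cells. They were 68.3%, 68.1%, 69.5%, 71.9% and 82.6% in R35A and 66.4%, 66.7%, 67%, 70.4% and 83.6% in R35K cells. For R35A against WT cells they were 55.7%, 51%, 46.9%, 39% and 51.4%, for R35K against WT cells 47.1%, 47% and 43.9%, and for the interactions 41.4% and 40.9%. DESeq2 gave counts of 3 in R35A cells at 3 hpi, 5 at 6 hpi, and 3 in R35K cells at 1 and at 6 hpi. For R35K against WT cells at 120 hpi the count was 0 with DESeq2, its size factors, no filter or the replicate block. An unadjusted p gave 1 for R35K against WT cells at 1 hpi, and no filter 2 for the interaction at 120 hpi. Leaving out a library gave ranges of 1 to 2, 0 to 1, 0 to 1, 0 to 2 and 1 to 2 in R35A against WT cells in the same order, 0 to 1 in R35K against WT cells at 120 hpi, and 1 to 2 and 1 to 3 in the interactions. The differences between replicates 1 and 2 had a median r of -0.004 over 153 pairs of groups (11116 genes, from -0.459 to 0.296, 16 above 0.1). As replicate numbers need not match between groups, this median cannot show whether groups shared a deviation. The replicate block changed no other count by more than 1.5 times. Depth limits Psma8 and Psme2b, and calls of 19S genes at 120 hpi lie near 1.5-fold.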
